A study of Mus musculus with 8 samples.

Results

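Peaks of open chromatin that touched an exon away from any promoter were examined, both those higher in hearts that lack CHD4 in cardiomyocytes and those higher in wild-type hearts. ATAC-seq, in which the transposase Tn5 cuts accessible DNA, was performed on mouse hearts at E10.5. A member was a listed peak that lay more than 3 kb from every annotated transcription start site (TSS) and overlapped an annotated exon by at least 1 bp. Of 15736 listed peaks, 616 (3.91%) were members. Their exons were coding, 3' UTR, 5' UTR or those of transcripts with no coding sequence.

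The 8 samples were 4 WT and 4 *Chd4-CMko* samples, each a pool of hearts from embryos at E10.5. The labels give 4 hearts a pool and the series' design text gives 3. In the cross described for this line, a Tnnt2 Cre/+ allele deletes Chd4 fl/fl in cardiomyocytes, and the other cells of the heart keep *Chd4*. That cross is given for stained embryos of this age, from a Chd4 fl/fl mother, so WT embryos from it would carry at least 1 floxed allele. Whether WT embryos carried the Cre is not stated, and no other agent was given. Whole dissociated hearts were used, so fewer cells of a type and less accessibility per cell cannot be told apart.

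Each genotype had 1 list of enriched peaks. A peak in the *Chd4-CMko* list is called gained and a peak in the WT list is called lost. All peaks had the same width, which the coordinates given below show. The lists hold a score per peak and no value per sample, so replicate spread, a test between genotypes, sequencing depth per sample and a check of heart markers could not be had. Intervals below are 95% intervals for shares (Wilson), differences of shares (Newcombe) and differences of means (normal), and cover counting error only, with neighbouring peaks treated as independent.

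CHD4 is the ATP-dependent motor of the NuRD complex, which couples nucleosome remodelling to histone deacetylation and is needed in the embryonic heart to keep genes of other programmes silent. Most regulatory elements away from promoters lie in introns or between genes, but exons can also be accessible: coding exons are richer in G and C than the DNA around them, some hold binding sites within their codons, and the ends of genes carry 3' UTRs in which the last exon closes the transcript. A peak over an exon is therefore defined by place alone, and its gene need not be the gene it acts on.

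The DNA at the centre of members that lay wholly in coding sequence is shown because the lists differed in base composition over all members. Of the members, 76 gained and 8 lost peaks were wholly coding. The 30 central bases are given for the 4 with the highest score in each list, 5' to 3' on the strand of the gene in GRCm38 (mm10), with each CpG dinucleotide in capitals.
Prdm13 (gained, chr4:21679439-21679468, minus strand): CGggCGgctgCGcagagCGacccctacCGg
Slc1a6 (gained, chr10:78787859-78787888, plus strand): gcactgCGcaCGCGcttgCGcctgcagacc
Cilp2 (gained, chr8:69882295-69882324, minus strand): ggtcaCGcCGaggccctggcactctggtCG
Disp2 (gained, chr2:118790753-118790782, plus strand): taagtttCGgtacatctggatctgctggtt
Serpinb13 (lost, chr1:107000654-107000683, plus strand): gtggtgacagaggaaggCGttgaggccact
Zbtb5 (lost, chr4:44994050-44994079, minus strand): tCGagggCGaggccccttatctgttgagtc
Syt14 (lost, chr1:192897399-192897428, minus strand): tgataggctggatttccttaggtctaaaca
Clca3a1 (lost, chr3:144737026-144737055, minus strand): gtgtctggagCGccccctgatggCGaccac
The gained windows hold 5, 4, 3 and 1 CpGs and the lost windows 1, 2, 0 and 2, so the lists overlap here. The whole peaks have GC contents of 78.1%, 66.9%, 72.8% and 61.6% in the gained and 59.6%, 58.3%, 49.0% and 51.0% in the lost list. They hold 18, 11, 19 and 13 CpGs against 6, 4, 3 and 5.

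Exonic peaks were a small part of both lists. There were 525 gained and 91 lost members, which are 4.04% of the gained and 3.32% of the lost list. Of the members 85.2% were gained, and the interval (82.2 to 87.8) included the 82.6% of all listed peaks. Among peaks over 3 kb from a TSS, 5.85% of 8979 gained and 3.99% of 2283 lost peaks were exonic, a difference of 1.86 percentage points (0.862 to 2.75). Of all windows of the genome with the width of a peak at that distance, 3.31% were exonic. Of the intronic peaks, 76.9% of 5578 were gained, which is 8.37 points below the members (interval of the difference 5.16 to 11.2). Of the intergenic peaks, 82.2% of 5068 were gained, and the interval of that difference included 0 (3.01 points, -0.185 to 5.80), though it lay above 0 in 7 of the alternative settings.

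The higher gained share was found in members that touched coding sequence. Of 333 such members 89.8% were gained, and of the 283 others 79.9%, a difference of 9.93 points (4.28 to 15.7). Within classes of 5% GC content this difference was 4.48 points, with an interval that included 0 (-1.05 to 10.0). Coding members exceeded intronic peaks by 12.9 points (9.06 to 16.0) and intergenic peaks by 7.57 points (3.71 to 10.6). Members without coding sequence did not differ from either beyond counting error, with differences of 3.00 points (-2.17 to 7.41) from intronic and -2.36 points (-7.52 to 2.03) from intergenic peaks.

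These shares moved with GC content, the share of G and C bases in the peak. The gained share of members was 57.1% of 14 peaks at 40 to 45% GC, 72.2% of 72 at 45 to 50%, 82.0% of 183 at 50 to 55%, 83.6% of 146 at 55 to 60%, 95.7% of 117 at 60 to 65% and 96.6% of 58 at 65 to 70%. Intronic and intergenic peaks rose over the same classes, from 50.9% and 62.2% to 94.6% and 94.2%. Within GC classes, averaged by the members' numbers, the difference from intronic peaks was 2.34 points (-0.594 to 5.28) and that from intergenic peaks -1.37 points (-4.29 to 1.56). The exonic share of distal peaks then differed between the lists by 0.153 points (-0.778 to 1.08). For coding members the difference from intronic peaks was 4.27 points (0.812 to 7.73) within GC classes, and that from intergenic peaks 1.37 points (-2.08 to 4.82). This comparison within GC classes was chosen after the data were seen.

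**Figure D1:**
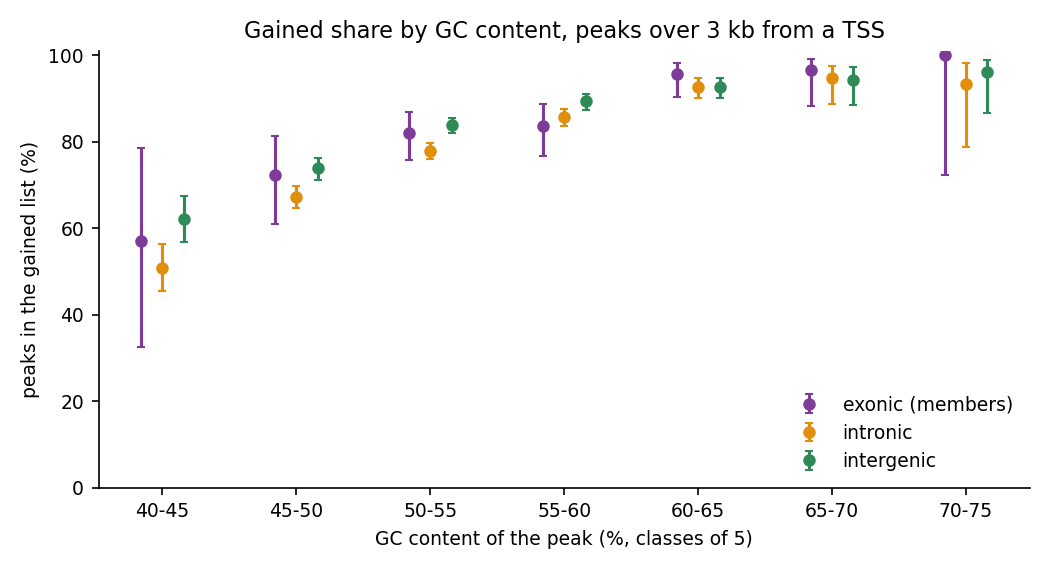
Share of peaks over 3 kb from a TSS that were in the gained list (y axis, %), by GC content of the peak in classes of 5% (x axis), for exonic peaks (members), intronic and intergenic peaks. Points are shares and bars are Wilson 95% intervals. In all 3 kinds of place the share rises from between 50.9% and 62.2% at 40 to 45% GC to over 90% above 60% GC, and the intervals of members overlap those of intronic peaks in every class.

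Coding sequence was a larger part of the gained members. It was touched by 299 of 525 gained members (57%, 52.7 to 61.1) and by 34 of 91 lost members (37.4%, 28.1 to 47.6), a difference of 19.6 points (8.48 to 29.7). Of the exonic windows of the genome, 45.4% touch coding sequence, a value between the lists. Within GC classes the difference was 11.2 points, and its interval included 0 (-0.186 to 22.6). A 3' UTR was touched by 173 gained (33%) and 38 lost members (41.8%), a difference of -8.81 points (-19.8 to 1.64), beside 40.01% of exonic windows. The last exon of a transcript was touched by 293 gained (55.8%) and 61 lost members (67.0%), a difference of -11.2 points (-21 to -0.218), beside 60.03% of exonic windows. That interval included 0 in 6 alternative settings, among them an overlap of at least 76 bp (-4.20 points), and for 3' UTRs it lay below 0 when only exons of protein-coding transcripts were used (-17.9 points). An internal exon was touched by 265 gained (50.5%) and 34 lost members (37.4%), a difference of 13.1 points (2.0 to 23.3). Since 1 exon can be coding, 3' UTR and last in different transcripts, these shares overlap.

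Counted once each, with coding sequence first, then 3' UTR, then 5' UTR, the gained members fell into 299 coding, 134 3' UTR, 2 5' UTR and 90 noncoding exon peaks. The lost members fell into 34, 30, 2 and 25. Noncoding exons were 17.1% of gained and 27.5% of lost members (difference -10.3 points, -20.7 to -1.51). Of these, 38 gained and 11 lost peaks lay in a transcript without coding sequence of a protein-coding gene, such as one that retains an intron. The other 52 gained and 14 lost peaks touched no protein-coding gene's exon, and lincRNA genes alone accounted for 35 and 4 of them.

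**Figure D2:**
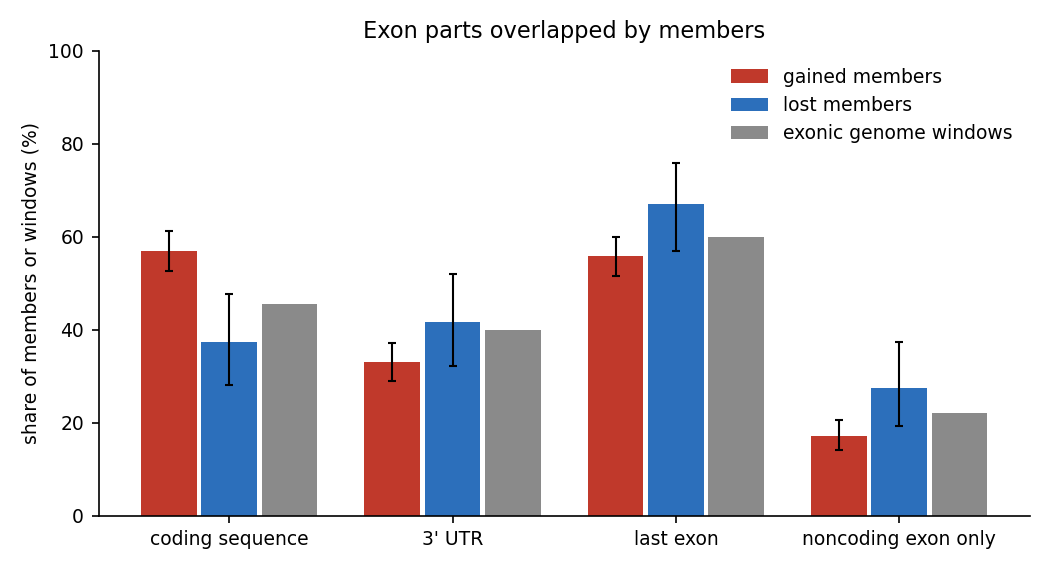
Share of gained members, lost members and exonic windows of the genome of the same width over 3 kb from a TSS (y axis, %) that touched each part of an exon (x axis). Bars on members are Wilson 95% intervals, and a peak can count under several parts. Coding sequence was touched by 57% of gained and 37.4% of lost members, and the windows lie between the lists in each of the 4 parts.

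Many members were not centred on an exon. The centre of the peak lay in an exon in 388 gained (73.9%) and 75 lost members (82.4%), and 300 gained and 61 lost peaks were wholly exonic. A splice site, the border of exon and intron, lay inside 227 gained (43.2%) and 29 lost members (31.9%), a difference of 11.4 points (0.404 to 21.04). The 5' site was covered by 126 gained and 17 lost peaks, and the 3' site by 123 and 17. The overlap was 76 bp or more, which is over one side of the peak, in 383 gained and 75 lost members. An exon longer than 1 kb was touched by 240 gained (45.7%) and 49 lost members (53.8%).

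Members lay nearer to promoters than other distal peaks did. Exons lie inside genes and no distance was computed for exonic windows, so how far this follows from the definition of members was not tested. Gained members had a median distance of 7869 bp to the nearest TSS and lost members one of 9081 bp, beside 13117 and 16250 bp for intronic peaks. Of gained members 25.1% lay 3 to 5 kb from a TSS, against 10.6% of other distal gained peaks (difference 14.5 points, 11.0 to 18.5), and of lost members 19.8% against 8.21% (11.6 points, 4.57 to 20.96). At the 3 kb limit, the gained member just inside lay in the 3' UTR of *Ezh1*, a histone H3K27 methyltransferase, at 3006 bp with a score of 106, and the exonic gained peak just outside lay in a coding exon of *Grin2c*, an NMDA receptor subunit, at 2969 bp with a score of 120. The lost member just inside lay in the 3' UTR of *Sccpdh* at 3071 bp with a score of 35.5, and the lost peak just outside lay in a noncoding exon of *Zcchc7* at 2985 bp with a score of 22.3. A further 1815 gained and 119 lost exonic peaks lay within 3 kb of a TSS and were not members.

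Gained members were richer in GC than lost members. Their mean GC content was 57.7% ± 7.12 (SD, n = 525 peaks) against 53.1% ± 5.62 (n = 91), a difference of 4.63 points (3.33 to 5.94). A GC content of 60% or more was found in 191 gained (36.4%) and 7 lost members (7.69%), and one under 50% in 62 (11.8%) and 27 (29.7%). Intronic and intergenic peaks differed between the lists by 3.93 points (3.58 to 4.29) and 3.81 points (3.39 to 4.23), so gained peaks were the GC-richer ones away from exons too. In both lists the members were richer in GC than the other distal peaks, by 3.78 points (3.16 to 4.40) in the gained and 3.02 points (1.84 to 4.20) in the lost list. Exonic windows of the genome have a mean GC content of 44.6%, above the 41.8% of intronic and 40.5% of intergenic windows. Exonic DNA at this distance is thus the richer in GC without regard to peaks.

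By class, gained coding members had the highest mean, 59.3%, which was 2.92 points (1.47 to 4.37) above gained 3' UTR members and 4.42 points (3.01 to 5.83) above gained noncoding members. Windows of the genome have 47.2% in coding, 42.2% in 3' UTR and 42.4% in noncoding exons, so coding DNA is the richest there as well. Among lost members the means were 54.0%, 53.1% and 52.2%, and the intervals of both differences from the coding members included 0. The lists differed by 5.26 points (3.06 to 7.47) in coding, 3.29 points (1.16 to 5.41) in 3' UTR and 2.70 points (0.0948 to 5.30) in noncoding members. Peaks with a GC content of at least 50% and an observed to expected CpG ratio of at least 0.6, the base composition of CpG islands, were 72 of the gained (13.7%) and 3 of the lost members (3.30%), beside 2.98% of other distal gained peaks.

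**Figure D3:**
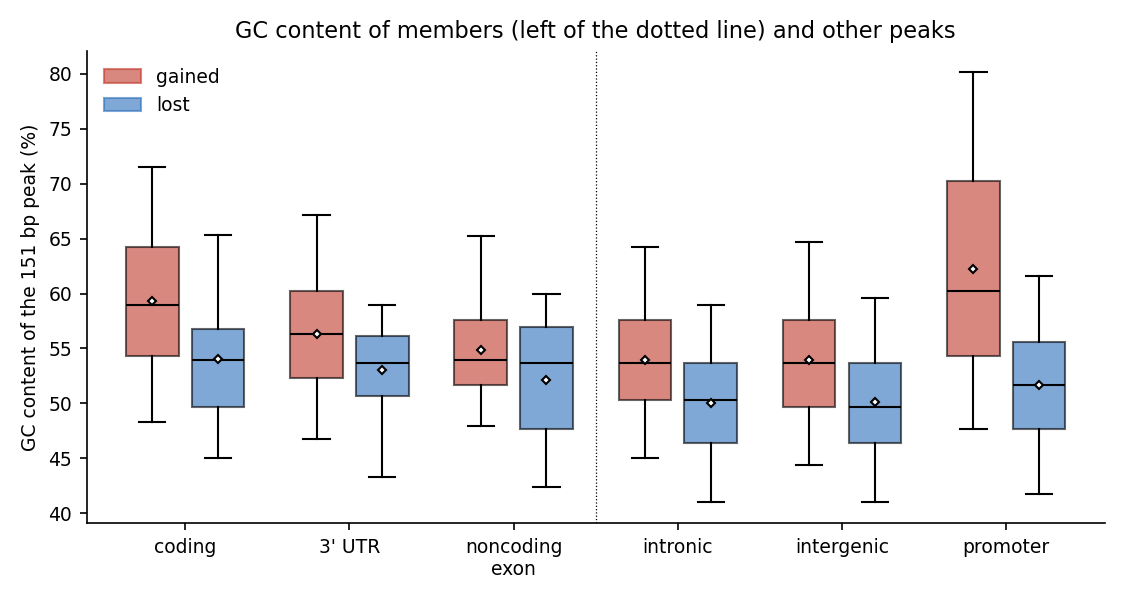
GC content of the peak (y axis, %) for members by class (left of the dotted line) and for intronic, intergenic and promoter peaks, gained and lost. Boxes span the quartiles with the median as a line, whiskers run from the 5th to the 95th percentile and diamonds are means. Gained boxes sit higher than lost ones in every class, and gained coding members (mean 59.3%) sit above all other distal classes.

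The genes and surroundings of the members differed in the same direction as the peaks. From 200 to 1000 bp on either side, the mean GC content was 48.5% at gained and 42.5% at lost members, a difference of 6.06 points (4.87 to 7.24). Peaks exceeded these flanks in 498 of 525 gained and 88 of 91 lost members, by 9.21 points (8.67 to 9.75) and 10.6 points (9.30 to 12.0). Most other distal peaks exceeded their flanks too, so this was not particular to members. In the gained list 91.8% of intronic and 92.3% of intergenic peaks did, by 7.83 and 8.21 points. In the lost list 90.1% of each did, by 7.40 and 7.35 points. At the last base of codons, which are the freest to vary, the coding bases inside the peak had 69.0% ± 13.3 GC in 244 gained members and 62.8% ± 15.5 in 29 lost members with at least 10 such bases. The whole coding sequences of their transcripts had 65.4% and 55.8%, a difference of 9.51 points (6.12 to 12.9). The peak exceeded its own coding sequence by 3.68 points (2.40 to 4.97) in the gained and 6.99 points (1.55 to 12.4) in the lost members. At the other codon bases it did so by 2.64 points (1.67 to 3.61) and 4.64 points (2.21 to 7.07). The whole coding sequences differed there by 3.97 points (2.52 to 5.42) between the lists.

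Repeats were scarcer in members than in other distal peaks. Bases masked as repeats made up 9.39% of gained and 5.86% of lost members on average, beside 17.4% and 10.0% of intronic and 21.03% and 14.5% of intergenic peaks. More than 10% of the 31-base words were found elsewhere in the genome in 39 gained and 5 lost members, where reads can be placed less surely.

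The scores place members within their own list, since the scales of the lists may differ. Gained members had a median score of 65.0 (range 21 to 405), beside 55.5 for intronic and 51.5 for intergenic gained peaks. Of them 51.6% lay above the median of the gained list, against 40.5% of other distal gained peaks, a difference of 11.2 points (6.77 to 15.5). Within GC classes that difference was 2.16 points (-2.12 to 6.43). Lost members had a median of 36.6 (range 15.2 to 761.5), and 48.4% of them against 47.6% of other distal lost peaks lay above the median of the lost list, a difference of 0.770 points (-9.44 to 11.1). Median scores of gained coding, 3' UTR and noncoding members were 69.5, 62.8 and 60.8, and those of lost members 36.1, 36.9 and 37.7.

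**Figure D4:**
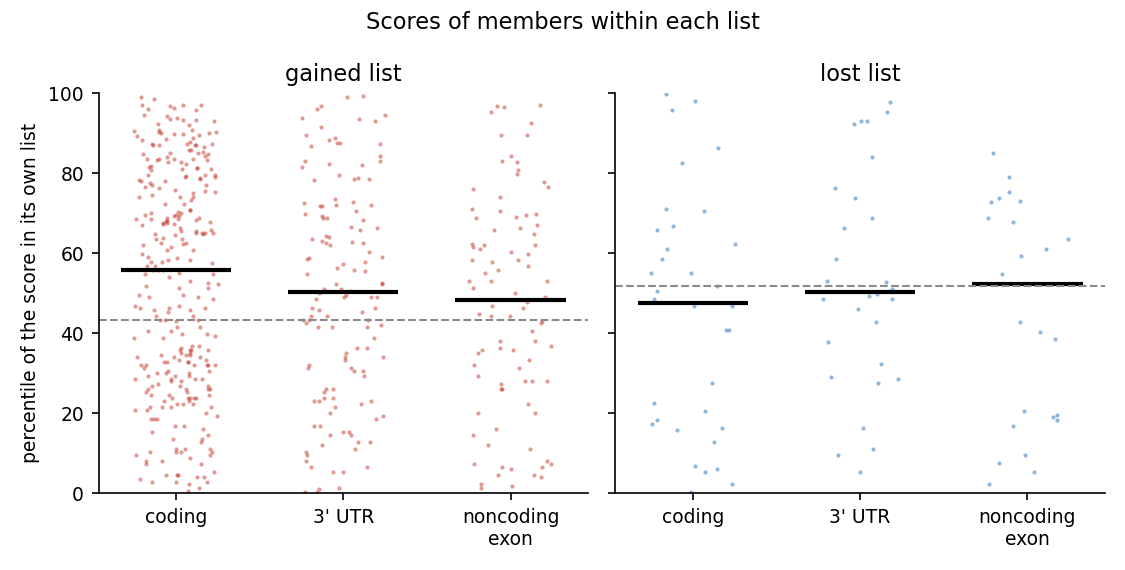
Percentile of each member's score within its own list (y axis) by class of exon (x axis), gained list on the left and lost list on the right. Each dot is a member, the thick line is the class median and the dashed line is the median of intronic peaks of that list. In the gained list the coding median (55.9) lies above the 3' UTR (50.4) and noncoding (48.4) medians and the intronic one (43.4), while in the lost list all medians lie between 47.7 and 52.3.

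The gained coding members with the highest scores were spread over genes of unlike function. The highest touched the last of 10 exons of *Catip*, a gene of ciliogenesis and actin assembly, at chr1:74368306-74368456 with a score of 379, rank 117 of 12991 in the gained list. It was followed by exon 14 of 16 of *Acot11*, an acyl-CoA thioesterase (chr4:106749819-106749969, score 342.5), exon 4 of 5 of *Ccdc124*, a ribosome-binding protein (chr8:70868639-70868789, 296.5), and the last of 4 exons of *Prdm13*, a zinc-finger regulator of neuronal fate (chr4:21679378-21679528, 292.5). *Ppp1r9b*, which encodes the protein phosphatase scaffold spinophilin, held a peak in exon 5 of 10 (chr11:95001193-95001343, 292.0), and *Slc1a6*, a glutamate transporter, in exon 2 of 10 (chr10:78787798-78787948, 282.5). Only *Prdm13* and *Slc1a6* of these 6 peaks were wholly coding, and the others shared 60 to 125 bp with coding sequence.

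Among gained 3' UTR members the highest score, 405, rank 87, belonged to *Lrfn1*, a synaptic adhesion gene (exon 2 of 2, chr7:28467541-28467691), where the peak had 76.2% GC and 20 CpGs. *Tbc1d16*, a regulator of Rab GTPases (chr11:119146297-119146447), *Cx3cl1*, the chemokine fractalkine (chr8:94781983-94782133), and *Cyp2s1*, a cytochrome P450 (chr7:25802337-25802487, 13 bp of exon), followed with 374, 285 and 271. The highest noncoding gained members lay in the lincRNA *E030044B06Rik* (chr19:40873195-40873345, score 294) and in intron-retaining transcripts of *Mag*, myelin-associated glycoprotein (chr7:30908707-30908857, 289), and *Cers6*, a ceramide synthase (chr2:68934805-68934955, 280.5).

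Among the lost members 1 score stood apart. A peak at chr5:136982684-136982834 with a score of 761.5, rank 2 of 2745 in the lost list, shared 4 bp with coding exon 5 of 6 of *Znhit1*, a subunit of the SRCAP complex that deposits H2A.Z. Its next neighbour among lost members scored 130.2 and lay in the last of 15 exons of *Cand2*, a muscle-expressed regulator of cullin ligases (chr6:115803594-115803744). Exon 49 of 102 of *Macf1*, a crosslinker of actin and microtubules (chr4:123455391-123455541), had 97.6. *Serpinb13*, of the serpin family (chr1:107000593-107000743), *Pdlim5*, a Z-disc protein (chr3:142282829-142282979, 11 bp of exon), and the keratin *Krt40* (chr11:99539873-99540023) had 64.3, 58.4 and 47.4.

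The lost 3' UTR members with the highest scores lay in *Mtch2*, a mitochondrial outer membrane protein (chr2:90866646-90866796, score 124.1), *Thsd4*, a microfibril-associated gene (chr9:59969512-59969662, 91.9), *Stk38l*, an NDR family kinase (chr6:146776682-146776832, 81.5), and *Nmt2*, an N-myristoyltransferase (chr2:3327479-3327629, 81.3). All 4 peaks were wholly within the last exon. The highest noncoding lost members lay in an intron-retaining transcript of *Pdlim3*, a Z-disc protein of muscle (chr8:45901737-45901887, 62.4), and in the antisense genes *4931406G06Rik* (chr16:91056587-91056737, 53.8) and *Pcsk2os1* (chr2:143536604-143536754, 50.2).

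Members were spread thinly over genes. Exons of 448 protein-coding genes held a gained member, which is 2.69% of the 16638 genes with an exon base over 3 kb from any TSS, and exons of 76 genes (0.457%) held a lost one. Of the first, 423 held 1 member, 24 held 2 and 1 held 3. The gene with 3 was *Cacna1a*, the pore subunit of P/Q-type calcium channels, with peaks in exon 19 (chr8:84559408-84559558, score 138.5, 79.5% GC and 27 CpGs), exon 21 (chr8:84567685-84567835, 46.0) and exon 39 (chr8:84629642-84629792, 46.0) of 47. *Macf1* held 2 lost members, the second in exon 42 (chr4:123461010-123461160, 35.7). *Flg2*, an epidermal filaggrin gene, was the 1 gene with members of both lists, 1 gained (chr3:93213352-93213502, score 27) and 2 lost (chr3:93206455-93206605, 20.1, and chr3:93216275-93216425, 17.6). Masked repeats made up 100%, 54.3% and 77.5% of these 3 peaks, and 94.2%, 46.3% and 39.7% of their 31-base words occur elsewhere.

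Gene lists were read against these background shares. The 16 lists covered heart, muscle and vessel genes and also blood, chromatin, ion channel, neuronal, cadherin, semaphorin, matrix and glycolysis genes. Of their 477 genes, 410 had an exon base over 3 kb from a TSS. A gained member lay in 27 of them (6.59%, beside 2.69% of all eligible genes) and a lost member in 2 (0.488%, beside 0.457%). Listed genes have more exon sequence in reach, with a median of 4.14 kb a gene against 2.16 kb over all protein-coding genes. Per megabase of that sequence, listed genes held 15.3 gained members (exact Poisson interval 10.45 to 21.6) and all protein-coding genes 9.64 (8.79 to 10.55). No further test was made, and the lists were written with earlier results of these data known.

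A gained member lay in 4 of 24 eligible cardiomyocyte genes, the largest share of genes among the lists, and a lost member in none. Per megabase of exon in reach, the cardiomyocyte list held 25.9 gained members (8.40 to 60.4), fewer than the Notch list with 28.8 (3.49 to 104) and the endothelial list with 28.04 (5.78 to 81.9), and these intervals overlap widely. In each of the 16 lists the interval of this rate included the 9.64 of all protein-coding genes. *Actc1*, cardiac alpha-actin, held 2 gained peaks 691 bp apart, in exon 6 (chr2:114048165-114048315, score 174.5) and exon 7 (chr2:114047474-114047624, score 143) of 7. *Actn2*, the Z-disc crosslinker alpha-actinin, held one in exon 16 of 22 (score 48.5). *Tnnt2*, cardiac troponin T and the gene that drives Cre in this cross, held a gained peak in the last exon of an intron-retaining transcript (chr1:135844591-135844741, score 107). The fast skeletal muscle list had *Ryr1*, the skeletal calcium release channel, on the gained side (8 bp of exon, score 157) and *Neb*, the thin-filament protein nebulin, on the lost side (1 bp of exon, score 41.4).

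Counts in the vessel, matrix and Notch lists are to be read beside the 2.69% of all eligible genes with a gained member. *Angpt1* and *Angpt2*, ligands of the TIE2 receptor, and *Flt4*, the lymphatic VEGF receptor, held coding gained members with scores of 35, 84 and 85, or 3 of 24 eligible endothelial and angiogenesis genes. *Efnb2*, the arterial ligand ephrin-B2, held a lost member in the 3' UTR of its last exon (chr8:8619667-8619817, score 79.3). Of 53 collagen and matrix genes, 3 held gained members, with 2 each in *Fn1*, fibronectin (exons 23 and 25 of 46, scores 31 and 42), and *Lama3*, a laminin chain (exons 33 and 50 of 75, scores 99 and 31), and 1 in *Col7a1*, the anchoring-fibril collagen (score 62.0). The Notch list had the receptor *Notch4* (score 45.0) and *Numbl*, a Notch antagonist (score 131.5), 2 of 18 genes.

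In the remaining lists few genes held a member, and their shares are to be read beside the same 2.69% of all eligible genes. A gained member lay in 12.5% of neuronal, 8% of semaphorin, 7.32% of cadherin, 7.14% of NuRD and SMYD1 and 6.82% of ion channel genes. The list drawn up from the study had 1 of 13 genes (7.69%). Of 14 eligible genes in the list of NuRD and SMYD1, 1 held a gained member: *Chd5*, a CHD4 paralogue known from neurons (exon 9 of 42, score 220). Of 52 chromatin remodellers and histone enzymes, 2 (3.85%) did, *Hdac5*, a class IIa deacetylase (score 185, with 3 bp of coding sequence), and *Ezh1* (score 106). *Chd4* held no member. A gained member lay in 3 of 44 ion channel genes, *Cacna1a* among them, and in 3 of 24 neuronal genes, *Grin2c* (207.5), the postsynaptic scaffold *Shank1* (133) and the presynaptic adhesion gene *Nrxn3* (noncoding exon, 89.0). The cadherin list had 3 of 41 genes, *Cdh16* (163.5), *Fat2* (49.5) and *Cdh6* (38.0), the semaphorin list 2 of 25, *Sema3g* (82.5) and *Sema5a* (28), and the glycolysis list 1 of 31 (3.23%), *Hk1*, hexokinase 1 (3' UTR, 63.5). In the *Cdh16* peak 57.9% of the 31-base words occur elsewhere. The cardiac transcription factor (25 eligible genes), erythroid (13) and epicardial (11) lists had no member in either list of peaks. At 2.69% of genes, lists of these sizes would hold fewer than 1 gene with a gained member, so the zeros do not set them apart.

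Consensus motifs were searched on both strands, and a peak was counted once per motif. KLF/SP was GGGNGNGGC, the E-box was CAGCTG, and the NFY motif was AGCCAAT. The letters AGATAAG stood for GATA factors, ACATTCC for TEAD factors, CCANNAGNNGGC for CTCF, TGANTCA for AP-1 and ACAGGAAG for ETS factors. The ninth, MEF2, allowed A or T at 4 places. A match is only the presence of these letters. For KLF/SP, which differed between the lists, and for NFY and CTCF, which differed within the gained list, the site in the highest-scoring coding member of each list that holds the motif is given in GRCm38, 5' to 3' on the strand of the motif, with the motif in capitals.
KLF/SP, Acot11 (gained, chr4:106749940-106749968, plus strand): ttcccgctcaGGGCGGGGCtgatgacgtg
KLF/SP, Zbtb5 (lost, chr4:44994057-44994085, minus strand): gtaggctcgaGGGCGAGGCcccttatctg
NFY, Map3k11 (gained, chr19:5696271-5696299, minus strand): ctggcgccaacAGCCAATggcagagaggc
CTCF, Nmur2 (gained, chr11:56027060-56027089, plus strand): ctgtcagctCCACAAGGTGGCattctgtca
CTCF, Fhl1 (lost, chrX:56791462-56791491, minus strand): tcaaagtggCCACCAGGAGGCaaccttggg
The sites in the *Map3k11* and *Fhl1* peaks lie outside the exon, and the other 3 sites lie within coding sequence. No lost member holds the NFY motif.

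The KLF/SP motif separated the lists most. It was found in 133 of 525 gained members (25.3%) and 2 of 91 lost members (2.20%), a difference of 23.1 points with an interval, widened to 99.44% for 9 motifs, of 12.7 to 29.0. Of exonic windows of the genome 2.40% hold it. Within GC classes the difference was 11.5 points (95% interval 6.06 to 17.0). Other distal gained peaks held it in 19.2%, which is 6.09 points below the members (1.06 to 11.8 at 99.44%), and within GC classes the difference was -2.41 points, with an interval that included 0 (-6.12 to 1.31 at 95%). Coding and other gained members held it in 26.4% and 23.9%. Of other distal lost peaks 3.28% held KLF/SP, so the lists differed in this motif away from exons too.

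For the other 8 motifs the interval of the difference between gained and lost members included 0 at 99.44%. For NFY it excluded 0 in 2 alternative settings, with start sites of protein-coding genes only (7.41 points, 1.38 to 10.4) and with 1 mismatch allowed (18.8 points, 4.13 to 29.4). NFY was found in 29 gained members (5.52%) and in 0 of 91 lost members. A limit of 3 counts allows a share of up to 3.30% there, and the upper Wilson limit is 4.05%. Of other distal lost peaks 1.37% held NFY. Gained members held it less often than other distal gained peaks (9.66%), a difference of -4.14 points (-6.51 to -0.576 at 99.44%), which within GC classes was -2.05 points (-4.20 to 0.105 at 95%). CTCF was found in 18 gained (3.43%) and 7 lost members (7.69%). Within the gained members it was found in 4 of 299 coding and 14 of 226 other peaks, a difference of -4.86 points (-11.0 to -0.206 at 99.44%), and 4 of the 34 lost coding members held it. E-box was found in 15.05% of gained and 14.3% of lost members, GATA in 4.00% and 3.30%, TEAD in 3.81% and 5.49%, AP-1 in 2.86% and 6.59%, ETS in 1.33% and 4.40%, and MEF2 in 0.952% and 1.10%. Exonic windows hold these 5 last motifs in 1.83%, 2.17%, 4.21%, 1.56% and 0.247%.

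**Figure D5:**
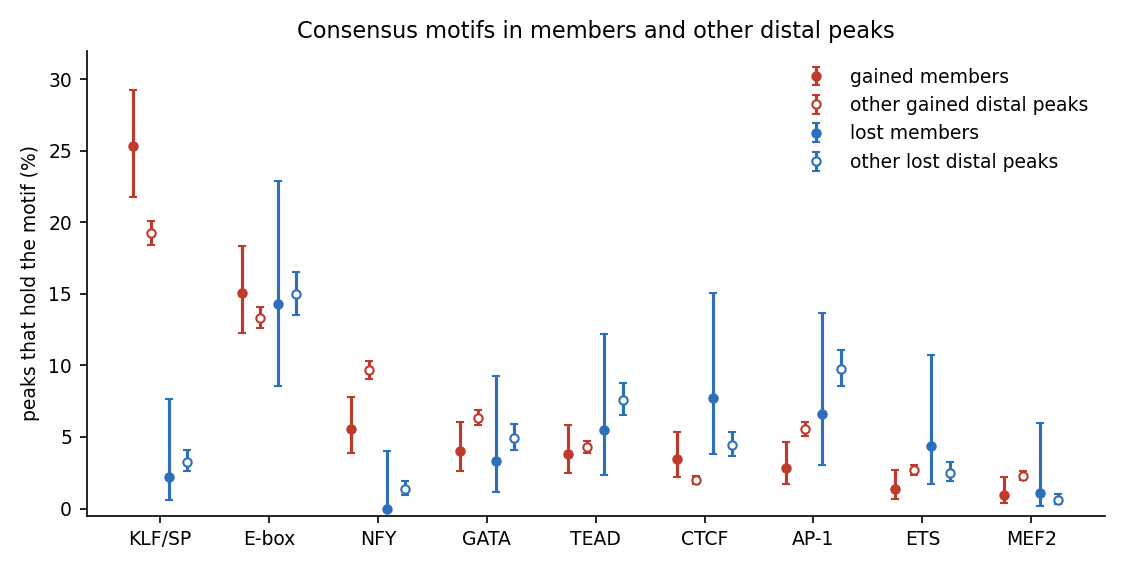
Share of peaks that hold each consensus motif (y axis, %) by motif (x axis), for gained members, other gained distal peaks, lost members and other lost distal peaks. Points are shares and bars are Wilson 95% intervals. KLF/SP is held by 25.3% of gained members against 2.20% of lost members, and the intervals of gained and lost members overlap for most other motifs.

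Members were spread over the chromosomes. The gained share of members was above that of intronic peaks on 15 of 19 autosomes, and the exonic share of distal peaks was higher in the gained than in the lost list on 15 of 19. On chromosome 7 there were 42 gained members and 1 lost member, and on chromosome 1 there were 33 and 14. Gained members had the higher mean GC content on 17 of the 18 autosomes that held lost members. A second gained peak lay within 10 kb of 125 gained members (23.8%, beside 20.2% of other distal gained peaks), and a second lost peak within 10 kb of 11 lost members (12.1%, beside 5.02%).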

How the data were processed

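Per the labels and the methods of the study, BWA-MEM served for alignment (mm10), HOMER 4.10.3 for peaks and ChIPseeker 1.20.0 for annotation, and a fold limit set which peaks were differential. How the samples of a genotype were combined, read filters and any Tn5 shift are not given in the sources used here, and each can change which peaks are listed. The deposited value is a peak score, read as HOMER's, whose scale is not stated, so scores were compared only within a list, apart from 1 alternative.

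Peaks were placed on GRCm38 and GENCODE M21 with bedtools 2.31.1, Python 3.11.15 and scipy 1.17.1. Windows were all 151 bp stretches at the same distance from a TSS. GC classes were 5% wide and used with at least 5 peaks a side. Statistics and overlap code were tested on simulated data.

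Genes were named by score within class (6 coding, 4 3' UTR and 3 other members a list), by number of members, by gene list, by distance limit and by motif. Members and lists were chosen with earlier results of these data known. Alternatives changed the TSS set and distance, the overlap, the transcripts, score filters, repeats and motif mismatches. Members in some listed genes are counted but not reported by name here. The lost list was used as deposited, and its number of peaks differs slightly from the number in the study's text.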

Additional observations from a re-analysis of the deposited data

How the results depend on the processing

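No paired analysis was possible because the files hold 1 pooled list per genotype and no value per sample, and leaving out a replicate was not possible for the same reason. Of the alternatives, 7 moved the interval of the gained share of exonic minus intergenic peaks above 0: start sites of protein-coding genes only (3.68 points), a 2 kb distance (3.26), exons of protein-coding transcripts (4.65) or of basic transcripts (3.90), only the higher scores of each list (4.91), repeat-rich peaks left out (3.59) and peaks with repeated 31-base words left out (3.69). Within GC classes it was -1.37 points. Within GC classes the intervals also came to include 0 for the difference from intronic peaks (2.34 points), the exonic share of distal peaks (0.153), the coding share (11.2), the last exon share (-9.66) and the share of gained members above the median score (2.16). GC classes and repeated words were chosen after seeing the data. The last exon share had an interval that included 0 with start sites of protein-coding genes (-8.85 points), a 5 kb distance (-9.87), an overlap of 76 bp or more (-4.20), and exons of protein-coding (-12.4) or basic transcripts (-10.1). The 3' UTR share had an interval below 0 with exons of protein-coding (-17.9) and basic transcripts (-13.1). The share of lost members above the median score turned to -1.61 at 5 kb, -2.36 at 76 bp and -1.50 with protein-coding transcripts, each with an interval that included 0. The number of motifs whose interval at 99.44% excluded 0 was 1, and 2, with NFY beside KLF/SP, with start sites of protein-coding genes or 1 mismatch. Among single motifs with intervals around 0, GATA turned to -0.824 points with start sites of protein-coding genes, -0.293 at 5 kb, -0.867 at 76 bp, -0.418 at a common score limit and -5.36 with 1 mismatch. E-box turned to -0.778, -3.13 with the higher scores, -1.89 at the common limit and -8.85 with 1 mismatch. MEF2 turned to 0.336 and 2.99, TEAD to 2.17 and 1.58, and ETS to 0.821. Of the listed genes, 1 in place of 2 held a lost member at 76 bp. The cause of these changes was not tested. Another 16 values of single motifs (ETS, NFY, AP-1 and CTCF) kept their direction while their 95% interval came to include or exclude 0. KLF/SP kept its direction and side in every setting run, between 11.5 and 32.2 points, as did the GC content differences. The 91 lost members limit every comparison with them, and depth per sample is not known.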
